A study of Mus musculus with 36 samples.

Results

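The genes described here are 8 of the 54842 counted in a time course of mouse embryonic fibroblast (MEF) cells in which an activator was directed to heterochromatin. They are 7 fibrillar collagen genes, Col1a1, Col1a2, Col3a1, Col5a1, Col5a2, Col5a3 and Col11a1, and Gm43921, a transcript annotated within the Col1a2 gene. They were chosen by their measured differences between the lines in these same libraries, and taken from the table by symbol, so their levels and differences are a description without a test. All 8 passed the filter on low counts, and 7 had a mean normalised count above 100 over the 36 libraries. Col5a3, with a mean of 84.3, did not reach that level and could not be called in any comparison.

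Both cell lines carried dCas9, a Cas9 without nuclease activity, under a doxycycline (dox)-inducible promoter, together with a constitutively expressed guide RNA to the major satellite repeats (MSR) of pericentric heterochromatin. In the MSR-dCas9-Control line dCas9 had no effector, and in the MSR-dCas9-Activator line it was fused to VPR, a transcriptional activator. Both were stable lines kept as mixed cultures. Each line was sampled before induction (uninduced), after induction with dox at 10 ng/ml (induced), and 3, 6, 12 or 24 h into the time without dox that followed, with 3 replicates in each of the 12 groups. Hours given from here on run from dox removal. Induction itself lasted 24 h in the Control line and 6 h in the Activator line. The effector and the length of dox exposure therefore cannot be told apart at any time from the end of induction on. Line and effector also coincide at every time. Total RNA was sequenced from whole cultures, in which fewer cells making a transcript and less of it per cell cannot be told apart. The paper reports no loss of viability in either line at the end of induction. By the last time sampled, it reports most induced Activator cells as apoptotic or dead, while Control cells stayed highly viable. The part of cell death in the levels of that time, and in the differences between replicates, was not tested.

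Gene counts per library ran from 27376846 to 57371803 with a median of 42865961, so the members other than Col5a3, Gm43921 and Col11a1 rested on 11900 to 695449 counts in every library. Of the fibroblast markers, Vim held 83.2% of the summed level in the Control line and 88.3% in the Activator line. Thy1 stayed at or below 0.206 CPM (counts per 1000000) and Cdh11 at or below 1.03, so 2 of the 8 fibroblast markers were at or near 0. The other 6 had lower means over all time points in the Activator line than in the Control line. These were 2211 against 2784 CPM for Vim, 150 against 322 for Prrx1 and 59.5 against 127 for Pdgfrb. S100a4 was at 52.4 against 63.4, Pdgfra at 25.2 against 41.6 and Twist1 at 4.68 against 10.0. Thy1 and Cdh11 were higher there, at their low levels. Markers of other cell types summed to at most 0.839 (epithelial), 1.91 (endothelial), 6.17 (blood), 0.608 (cartilage and bone) and 8.51 (skeletal muscle) CPM in Control libraries. In Activator libraries these sums reached 3.78, 46.3, 14.0, 3.51 and 12.1, with Pecam1 as the main part of the endothelial sum. The part of these genes in the results below was not tested. The second Activator replicate stood apart from the others in several members, and the main results that rest on it are also given without it. Its normalised count of GSAT_MM, the major satellite family, was the lowest of the 3 before induction, at the end of induction and after 24 h. Before induction it was 2199 against 4194 and 3888 in replicates 1 and 3. At the end of induction it was 99821 against 150976 and 1064411, and after 24 h 455193 against 485508 and 1496752. After 3, 6 and 12 h it lay between the others. SYNREP_MM, the minor satellite family, was lowest in replicate 2 at every time. Its counts were 14449 against 22129 and 21502 at the end of induction, and 10659 against 57141 and 32645 after 24 h. A link between these counts and the members was not tested.

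Fibrillar collagens form the rope-like fibrils of connective tissue. Their chains wind into a triple helix, and each type has its own chain composition. Type I collagen, the main type of skin, bone and tendon, joins chains from Col1a1 and Col1a2. Type III is made of Col3a1 chains alone, and types V and XI, from Col5a1, Col5a2, Col5a3 and Col11a1, are minor partners that help start fibrils and set their width. Chains are modified and folded in the endoplasmic reticulum, exported in large carriers, trimmed outside the cell and cross-linked. Fibroblasts are the main source of these chains, and signalling by TGF-beta is a known inducer of their genes.

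In the GRCm38 assembly Col1a2 (ENSMUSG00000029661) spans chr6:4504814-4541544 on the plus strand. Gm43921 (ENSMUSG00000107603) spans chr6:4506087-4507878 on the same strand, 1792 bases in a single exon. GENCODE M21 gives it the biotype TEC, for transcripts whose annotation is still provisional. It lies whole within intron 1 of the main Col1a2 transcript (chr6:4505910-4508334, 2425 bases), of which it covers 73.9%, and holds 0 bases of Col1a2 exons. It starts 178 bases after the end of exon 1 and ends 457 bases before exon 2. Counts of Gm43921 are therefore counts of intron 1 sequence. The strand setting of the counting is not given in the sources used here, and unspliced Col1a2 RNA and a separate transcript cannot be told apart in them.

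**Figure D1:**
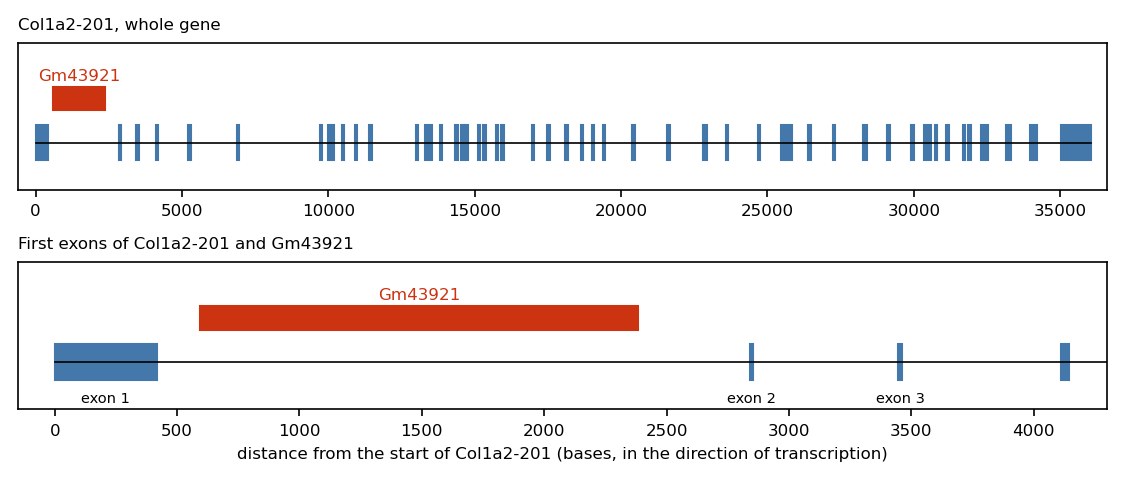
Map of Col1a2 with its exons (blue) and Gm43921 (red), by distance from the start of the main transcript in bases, for the whole gene (top) and its first exons (bottom); the narrowest exons are drawn wider than scale. Gm43921 lies between exon 1 and exon 2 and overlaps neither.

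Different sequence sets the 2 counts apart. The first shown is the start of Gm43921 (chr6:4506087-4506326, plus strand, GRCm38), which is intron sequence to Col1a2. The other is the end of Col1a2 exon 1 (from 4505880 to 4505909) in lower case joined to the whole of exon 2 (chr6:4508335-4508345, 11 bases) in capitals, as it reads in the spliced mRNA.
Gm43921: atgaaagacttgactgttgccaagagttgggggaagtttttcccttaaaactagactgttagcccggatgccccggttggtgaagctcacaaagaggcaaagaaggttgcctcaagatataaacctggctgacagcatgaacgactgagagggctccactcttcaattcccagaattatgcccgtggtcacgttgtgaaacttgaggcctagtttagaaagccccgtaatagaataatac
Col1a2 exon 1 end and exon 2: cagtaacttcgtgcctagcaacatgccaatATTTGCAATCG

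RefSeq promoter windows, 250 bases before to 50 after the start of transcription in GRCm38.p6, were at hand for 5 of the 8 members (Col1a2, Col3a1, Col5a1, Col5a3 and Col11a1). The windows of Col1a2 (chr6:4505368-4505667) and Col3a1 (chr1:45311288-45311587), both on the plus strand, are shown because these genes differed between the lines by different amounts. Capitals mark, on either strand, the CCAAT box, the GC box GGGCGG or the TATA box TATAAA.
Col1a2 promoter: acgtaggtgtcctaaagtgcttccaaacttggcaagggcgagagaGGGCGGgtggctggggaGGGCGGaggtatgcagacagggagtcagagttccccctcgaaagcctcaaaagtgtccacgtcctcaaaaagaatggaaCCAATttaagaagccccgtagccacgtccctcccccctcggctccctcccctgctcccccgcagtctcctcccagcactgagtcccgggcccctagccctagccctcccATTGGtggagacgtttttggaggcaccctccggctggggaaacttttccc
Col3a1 promoter: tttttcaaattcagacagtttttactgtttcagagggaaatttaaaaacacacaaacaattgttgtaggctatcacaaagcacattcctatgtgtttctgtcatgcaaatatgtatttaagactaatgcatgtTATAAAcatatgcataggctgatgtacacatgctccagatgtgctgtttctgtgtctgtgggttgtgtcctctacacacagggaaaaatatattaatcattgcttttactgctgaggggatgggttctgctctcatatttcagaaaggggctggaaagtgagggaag
The Col1a2 window held 2 matches to the CCAAT box and 2 to the GC box, while the Col3a1 window held neither and had 1 match to the TATA box. Matches were counted anywhere in a window, without regard to their distance from the start. Exon 1 of the main Col1a2 transcript mapped above (417 bases, ending at 4505909) begins within the Col1a2 window. Both CCAAT matches lie in that exon. Over all 32851 promoter windows, 37.4% held a CCAAT box, 35.7% a GC box and 13.6% a TATA box on at least 1 strand, so these letters are common, and their presence is a description only.

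Levels between genes were compared as counts per 1000 bases of merged exon length per 1000000 gene counts. In uninduced Control cells Col1a1 had the highest level, 1975 ± 175 (SD, n = 3), followed by Col1a2 at 466 ± 39.6. Col3a1 (199.7 ± 23.4) and Col5a2 (180.2 ± 5.27) came next and did not differ beyond their spread, and Col5a1 followed at 119.9 ± 6.16. The intron transcript Gm43921 reached 39.8 ± 3.69, Col11a1 only 3.66 ± 0.149 and Col5a3 0.314 ± 0.128. With the length of the longest coding transcript instead, Col1a2 rose to 1083 ± 92.0, Col3a1 to 352 ± 41.3 and Col11a1 to 6.08 ± 0.247, and the order of the 8 genes was kept. Col3a1 then lay above Col5a2 in every library, at 386, 365 and 306 against 268, 253 and 261. On that scale Col1a1 exceeded Col1a2 by 2.03 ± 0.218 times. The 7 collagen genes together held 2.36% ± 0.146 of gene counts in uninduced Control cells and 2.52% ± 0.0250 in uninduced Activator cells.

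Gm43921 showed the largest difference between the lines among the 8 genes. Its normalised counts in the uninduced libraries were 3165, 3093 and 2759 in the Control line and 2608, 4306 and 3452 in the Activator line, and these overlapped. After induction they were 3678, 3693 and 3430 in the Control line but 206, 1116 and 239 in the Activator line. Every induced Activator library lay below every uninduced library of either line, and replicate 2 was the highest of the 3. After 3 h the Activator counts were 75.0, 444 and 76.4, the lowest of the time course, against 3489, 3369 and 2736 in the Control line. After 6 h they were 86.7, 970 and 101, against 4601, 5130 and 4098, and after 12 h 123, 741 and 167, against 4086, 4273 and 3171. After 24 h they had reached 327, 2520 and 425, against 5179, 5506 and 4109. The groups did not overlap at any time from the end of induction on, and replicates 1 and 3 of the Activator line stayed close to each other throughout.

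The fitted log2 fold change of Gm43921, Activator against Control, was 0.13 ± 0.58 (SE, n = 3 per group) before induction, -3.22 ± 0.65 at its end, -4.42 ± 0.70 after 3 h, -4.10 ± 0.68 after 6 h, -3.85 ± 0.67 after 12 h and -2.65 ± 0.63 after 24 h. After 3 h the level in the Activator line was thus 4.68% of that in the Control line, and after 24 h 15.9%. Replicate 2 of the Activator line was 5.01 to 10.3 times the mean of the other 2 from the end of induction on, and 1.42 times before it. Without that replicate at all time points the log2 fold changes were 0.07 ± 0.14, -3.93 ± 0.17, -5.32 ± 0.20, -5.52 ± 0.20, -4.62 ± 0.19 and -3.51 ± 0.17 in the same order. The fall was larger at every time after induction without it, and after 6 h the level was then 2.18% of the Control line.

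**Figure D2:**
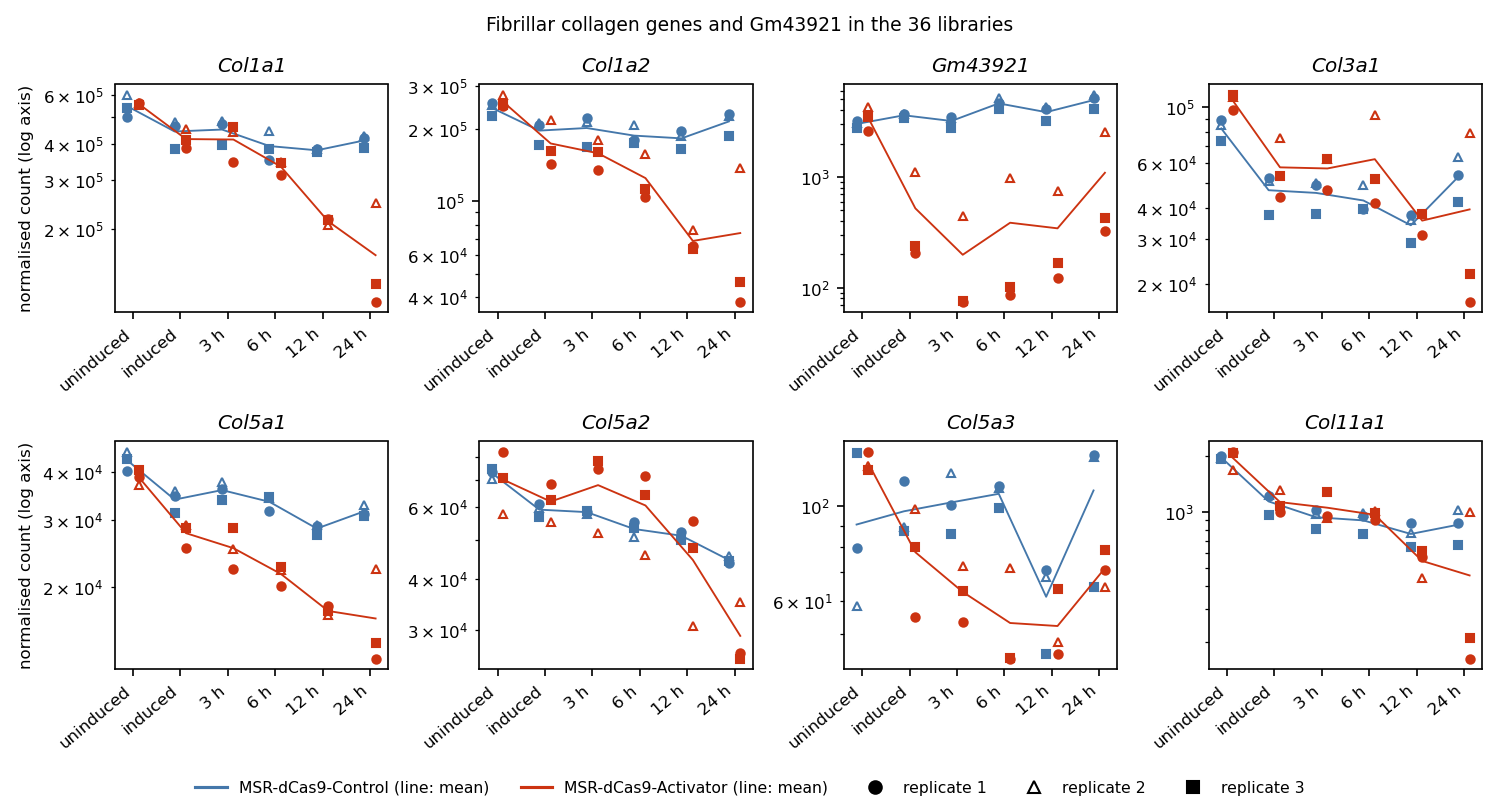
Normalised counts (log axis) of the 8 genes in the 36 libraries, by time point, for the MSR-dCas9-Control (blue) and MSR-dCas9-Activator (red) lines; points are replicates 1 to 3, lines join the means of 3. Gm43921 fell in the Activator line by the end of induction, Col1a1 and Col1a2 were lowest after 12 and 24 h, and Activator replicate 2 (open symbol) lay above the other 2 replicates in 7 of the 8 genes after 24 h and in Gm43921 from induction on.

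Set against the mRNA in the same library, which needs no scaling between libraries, the intron transcript fell far more than Col1a2 itself. Uninduced Control libraries held 12.3 ± 0.107 Gm43921 counts per 1000 Col1a2 counts and uninduced Activator libraries 13.3 ± 2.56 (SD, n = 3). In the Control line this ratio was higher at every later time, between 15.9 ± 0.280 after 3 h and 24.6 ± 1.04 after 6 h. In the Activator line it was 1.44, 5.16 and 1.48 at the end of induction and 0.558, 2.47 and 0.476 after 3 h. It was then 0.832, 6.18 and 0.896 after 6 h, 1.87, 9.71 and 2.62 after 12 h, and 8.51, 18.4 and 9.16 after 24 h. The ratio was thus nearer its uninduced value after 24 h, at a time when both the intron transcript and the mRNA stood below their uninduced levels in all 3 replicates.

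The Col5a2 locus has the same layout. Gm38211 is a TEC transcript that lies whole within intron 1 of Col5a2 on the same strand, at chr1:45485836-45493052, and was singled out for its position after the data were seen. The ratio of Gm38211 to 1000 Col5a2 counts was 53.8 ± 8.85 in uninduced Control cells and 51.9 ± 4.40 in uninduced Activator cells. In the Control line it stayed between 42.6 and 74.6 in all 18 libraries. In the Activator line it was 5.45, 13.4 and 5.95 at the end of induction, 2.04, 8.10 and 2.02 after 3 h, 1.71, 18.6 and 2.29 after 6 h, 3.61, 22.9 and 4.03 after 12 h, and 19.4, 65.8 and 26.9 after 24 h. The low point came after 3 to 6 h in replicates 1 and 3, and replicate 2 was again the highest. The counts of Col5a2 itself overlapped between the lines up to 12 h.

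**Figure D3:**
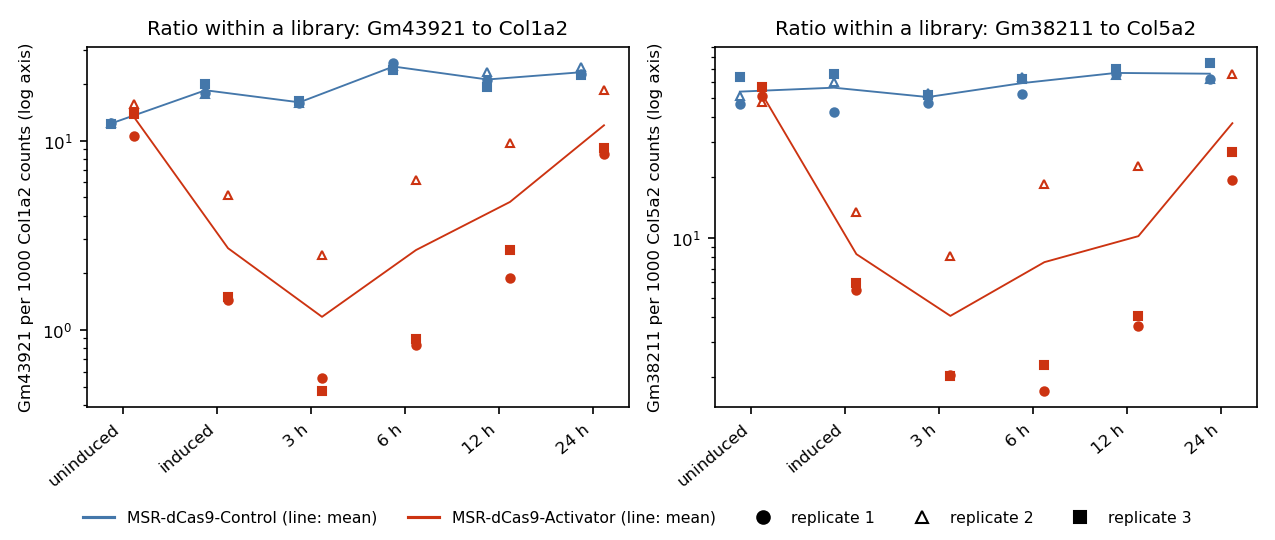
Counts of an intron 1 transcript per 1000 counts of its host gene (log axis), Gm43921 to Col1a2 (left) and Gm38211 to Col5a2 (right), in the 36 libraries by time point; points are replicates, lines join the means of 3. The Control line stays between 12.2 and 25.6 (left), and every Activator library from the end of induction to 12 h lies below the Control libraries in both panels.

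Gm43921 and Gm38211 were then placed among all 300 TEC genes that lie within an intron of a host gene on the same strand and have, like their host, a mean count above 100. Of these, 150 were called lower in the Activator line at the end of induction, 201 after 3 h, 199 after 6 h, 184 after 12 h and 68 after 24 h, and 0 before induction, where edgeR called few genes in all (0.214% of those tested). Of their 300 hosts, 47, 65, 68, 86 and 35 were called lower from the end of induction on. Over all genes tested, which include those with a mean under 100, the shares were 5.71%, 9.45%, 10.3%, 10.9% and 4.12%. The median log2 fold change of the 300 was -1.01, -1.55, -1.46, -1.31 and -0.66 from the end of induction on, against -0.14, -0.23, -0.28, -0.41 and -0.41 for their hosts. Gm43921 had the lowest log2 fold change of the 300 at each of these 5 times. In the difference from the host gene, Gm43921 and Gm38211 ranked 1 and 2 of 300 at the end of induction and after 3 h, 2 and 1 after 6 h, 6 and 1 after 12 h, and 14 and 18 after 24 h. These ranks are a description, since both genes were chosen with their values known.

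The type I genes came apart between the lines later than the intron transcript. Col1a2 counts in the Activator line were 247603, 276153 and 250663 before induction, 142862, 216172 and 161718 at its end, and 134363, 179491 and 160438 after 3 h. They went on to 104285, 156978 and 112929 after 6 h, 65416, 76355 and 63623 after 12 h, and 38386, 136711 and 46355 after 24 h. In the Control line they were 254469, 251262 and 225653 before induction, 207119, 210292 and 171456 at its end, 196259, 185718 and 164822 after 12 h, and 230547, 226064 and 186094 after 24 h. The lines overlapped up to 3 h, and every Activator library lay below every Control library after 6, 12 and 24 h. After 24 h replicates 1 and 3 had gone on falling, while replicate 2 was higher than after 12 h.

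The log2 fold change of Col1a2, Activator against Control, was 0.08, -0.19, -0.35, -0.60, -1.42 and -1.63 from uninduced to 24 h, each with an SE of 0.22 to 0.23. After 12 h the Activator line held 37.3% of the Control level. Without Activator replicate 2 the change after 24 h was -2.15 ± 0.12, or 22.5% of the Control level, and that after 12 h was -1.38 ± 0.11.

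Col1a1, whose chain is present in 2 copies in each type I molecule, fell with Col1a2 but less. Its counts in the Activator line were 560898, 558482 and 550944 before induction, 386886, 452172 and 413578 at its end, 217030, 206945 and 215874 after 12 h, and 110762, 247064 and 127498 after 24 h. The Control line held 500842, 599276 and 538854 before induction, 465616, 481212 and 385770 at its end, 383578, 383811 and 375605 after 12 h, and 421347, 428377 and 388982 after 24 h. The Activator libraries lay below every Control library after 6, 12 and 24 h. Log2 fold changes were 0.03, -0.09, -0.12, -0.24, -0.83 and -1.38 in time order (SE 0.15 to 0.16). After 24 h the Activator line held 38.3% of the Control level, and 32.9% without replicate 2.

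The ratio of Col1a1 to Col1a2 RNA shifted in the Activator line. Per length of the longest coding transcript, Col1a1 was 1.95 ± 0.113 times Col1a2 before induction, 2.21 ± 0.290 at its end and 2.83 ± 0.338 after 12 h. The Control line stayed between 1.65 and 2.15 in all 18 libraries. After 12 h the ratio was above that range in all 3 Activator libraries, from 2.44 to 3.06, and after 24 h it was 2.60 and 2.48 in replicates 1 and 3 and 1.63 in replicate 2. Per merged exon length the same ratios ran from 3.42 to 6.42 in the Activator line, since the Col1a2 gene model holds 12426 bases of exons while its main transcript holds 5348.

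Col3a1, the type III gene, did not follow type I up to 12 h. Activator counts were 97737, 110070 and 112111 before induction, all above the Control counts of 88727, 85230 and 73477. After 12 h they were 31205, 37682 and 37734, against 37333, 35767 and 29089, so that both lines had fallen to a similar level and overlapped. After 24 h they were 16969, 79417 and 21731, against 53694, 63308 and 41978, with replicate 2 above every Control library and the other 2 below all of them. The log2 fold change was 0.37, 0.27, 0.33, 0.49, 0.06 and -0.56 in time order (SE 0.30). The values above 0 from the end of induction to 12 h turned below 0 (-0.09, -0.30, -0.18 and -0.60) when libraries were scaled to the 13 mitochondrially encoded mRNAs. That scaling moved the median of all genes, 0.10 to 0.16 at the end of induction to 12 h under the main scaling, to -0.25, -0.44, -0.58 and -0.49. Without Activator replicate 2 the change of Col3a1 after 24 h was -1.23 ± 0.19.

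Among the type V genes, Col5a1 fell steadily and Col5a2 late. Col5a1 counts in the Activator line went from 38933, 36954 and 40583 before induction to 25312, 29156 and 28550 at its end, 17799, 16870 and 17263 after 12 h, and 12992, 22338 and 14300 after 24 h. Each of these induced and post-induction libraries lay below every Control library of its time, which held 31289 to 35711 at the end of induction, 27425 to 29086 after 12 h and 30695 to 32861 after 24 h. The log2 fold change was -0.14, -0.29, -0.51, -0.63, -0.72 and -0.94 (SE 0.11). Under the main scaling with all libraries it was therefore not past the 2-fold limit at any time. Without Activator replicate 2 it was -1.04 ± 0.08 after 24 h, and with the libraries scaled to the 13 mitochondrially encoded mRNAs it was -1.12, -1.34, -1.34 and -1.11 (SE 0.17) from 3 h on.

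Col5a2 counts in the Activator line were 82181, 57655 and 70726 before induction, 68378, 55126 and 62474 at its end, 55460, 30600 and 47528 after 12 h, and 26240, 35174 and 25462 after 24 h. Control counts were 73403, 70389 and 74722, then 61147, 59812 and 56717, then 52307, 51189 and 49720, and 43848, 45420 and 44303 at these times. The groups overlapped up to 12 h and were apart only after 24 h, where the log2 fold change was -0.61 ± 0.15. Replicate 2 was the lowest of the Activator libraries at every time before 24 h and the highest after 24 h. The ratio of Col5a1 to Col5a2 counts was 0.563 ± 0.0841 in uninduced Activator cells, 0.383 ± 0.0933 after 3 h, 0.372 ± 0.103 after 6 h and 0.564 ± 0.0700 after 24 h (SD, n = 3). In the Control line it was 0.590 ± 0.0478, 0.615 ± 0.0390, 0.631 ± 0.0514 and 0.709 ± 0.0154 at the same times. The lines did not overlap from the end of induction on, but after 12 h they all but touched. The highest Activator library, replicate 2, was then at 0.5513 and the lowest Control library at 0.5514.

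The weakly expressed members were the least certain. Col11a1 counts in the Activator line were 2105, 1682 and 2086 before induction, 998, 1320 and 1071 at its end, 576, 442 and 618 after 12 h, and 163, 994 and 211 after 24 h. Control counts after 24 h were 876, 1024 and 662. Replicates 1 and 3 thus lay below every Control library after 24 h, while replicate 2 lay among them. The log2 fold change after 24 h was -0.96 ± 0.36 with replicate 2 and -1.99 ± 0.18 without it. Before that it was 0.01, -0.02, 0.19, 0.11 and -0.47, and the values above 0 after 3 and 6 h turned to -0.44 and -0.61 under the mitochondrial scaling. Col5a3 held between 43.8 and 134 normalised counts in all libraries, with log2 fold changes of 0.46, -0.34, -0.70, -1.01, -0.24 and -0.59 (SE 0.27 to 0.29), and its groups were apart after 3 and 6 h only.

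**Figure D4:**
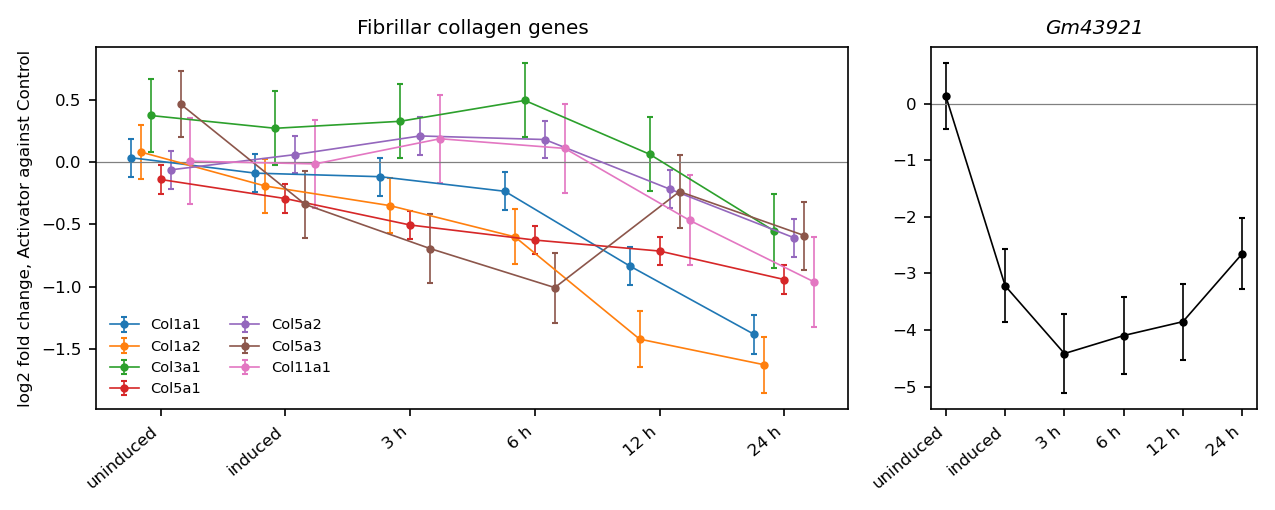
Log2 fold change, MSR-dCas9-Activator against MSR-dCas9-Control, of the 7 fibrillar collagen genes (left) and Gm43921 (right, own scale) by time point; bars are the standard error from the fit to 36 libraries. Col1a1 and Col1a2 reach -1.38 and -1.63 after 24 h, the groups of Col3a1 and Col5a2 do not come apart after induction until 24 h for Col5a2, and Gm43921 is lowest after 3 h.

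Counted over the 8 genes, none was called before induction, 1 was called lower at each of the end of induction, 3 h and 6 h (Gm43921), 2 after 12 h (with Col1a2) and 3 after 24 h (with Col1a1), and none was called higher. Over all 28536 genes tested, 0.021%, 5.71%, 9.45%, 10.3%, 10.9% and 4.12% were called lower at these times, and nothing is read from the comparison, since the same contrasts were in view when the genes were chosen. A call was an adjusted p-value under 0.05, a change beyond 2-fold and a mean above 100. Without Activator replicate 2, 6 members were called lower after 24 h, with Col3a1, Col5a1 and Col11a1 added, beside 5.48% of all genes. Under the mitochondrial scaling 0, 1, 2, 3, 5 and 5 members were called lower in time order. The median log2 fold change of the 8 was 0.06, -0.14, -0.23, -0.42, -0.59 and -0.95, beside 0.03, 0.10, 0.16, 0.13, 0.12 and 0.01 over all genes. In time order 0, 2, 3, 5, 5 and 5 members had every Activator library below every Control library, beside 7.95%, 26.1%, 31.6%, 30.9%, 33.7% and 28.8% of all genes.

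A fall from uninduced to induced samples was shared by both lines for most members. Uninduced samples were taken before induction, so within a line dox and the time passed cannot be told apart. In the Control line, which had no effector, Col3a1 at the end of induction was at 56.6% of its uninduced level, Col11a1 at 57.7%, Col5a1 at 79.0%, Col1a2 at 80.2%, and Col1a1 and Col5a2 at 81.4% each. The groups were apart for these 6 genes, beside 8.78% of all genes whose induced Control libraries lay below the uninduced ones. In the Activator line the matching values were 52.7% for Col3a1, 56.8% for Col11a1, 71.1% for Col5a1, 66.4% for Col1a2, 74.7% for Col1a1 and 88.6% for Col5a2, the last with overlap. With Col5a3, 7 members lay apart there, beside 27.2% of all genes. In these 6 genes the change between uninduced and induced cells differed from line to line by at most 0.27 on the log2 scale, with SEs of 0.16 to 0.49. Gm43921 went to 119.8% of its uninduced level in the Control line and to 11.8% in the Activator line. Of the 8 genes 1 was called lower in the Activator line (Gm43921; 6.02% of all genes) and none in the Control line (0.0526% of all genes).

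By 12 h the Control line had recovered neither Col3a1, at 41.2% of its uninduced level, nor Col11a1, at 38.6%, while Gm43921 stood at 125%. After 24 h Col1a2 was at 87.6% there and overlapped its uninduced libraries, and Gm43921 was at 161%. In the Activator line after 24 h, Col1a1 was at 28.4% of its uninduced level, Col1a2 at 26.8%, Gm43921 at 23.4%, Col3a1 at 33.2%, Col5a1 at 42.2%, Col5a2 at 42.0%, Col5a3 at 56.5% and Col11a1 at 21.9%. Without Activator replicate 2 these values were 21.4%, 17.0%, 12.4%, 18.4%, 34.3%, 33.8%, 58.6% and 8.91% in the same order. All 3 Activator libraries lay below the uninduced ones for each of the 8, beside 26% of all genes. The share of gene counts held by the 7 collagens went from 2.52% to 0.549%, 1.48% and 0.589% in the 3 Activator libraries after 24 h, while the Control libraries of that time held 1.67% to 2.06%.

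The genes whose pattern over the 12 groups was most like that of a member were found by the root-mean-square distance between centred group means on the log2 scale, among 13618 genes with a mean of at least 100. For Col1a1 they were Asb5 (0.104), Leprot (0.113) and Mcee (0.125). For Col1a2 they were Spcs3 (0.129), the unnamed transcript Gm43719 (0.144) and Mcee (0.154). For Col3a1 the nearest was Gm47302 (0.0519), a miRNA gene model whose 141 bases all lie in a Col3a1 exon and whose counts share that sequence, followed by Tspan17 (0.176) and Tmsb4x (0.183). Gm43921 lay further from any gene, with Gm42680 (0.308), Frmd4b (0.308) and Snord78 (0.316) the nearest. Between Gm43921 and its host Col1a2 the distance was 1.59, while Col1a1 and Col1a2 were 0.183 apart.

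Within 200 kb of either end of Col1a2 lie 11 other annotated genes, of which Casd1 and Sgce had a mean above 100. Casd1, which encodes a sialic acid O-acetyltransferase, was higher in the Activator line after 3 h, with a log2 fold change of 1.16 ± 0.10 (edgeR, adjusted p = 8.29e-11). It was also higher, but by less than 2-fold, at the end of induction (0.78 ± 0.10, edgeR adjusted p = 2.25e-07). After 6 h it was at 0.63 ± 0.10 (edgeR adjusted p = 3.00e-06), and it lay between -0.18 and 0.29 at the other times. Sgce, which encodes a sarcoglycan, stayed between -0.30 and 0.06. The other 9 (Gm8602, Gm44379, Gm44380, Gm24442, Gm2522, Gm37883, Gm18289, Gm26696 and Gm44432) averaged at most 25.3 counts and could not be called. Of these Gm26696, with a mean of 7.04, had log2 fold changes of 3.27, 4.14, 2.06, 2.41 and 2.04 from the end of induction on. Gm44432 went the other way, to -1.39 ± 0.42 after 12 h, and so did Gm8602, to -1.12 ± 0.42 after 24 h.

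The genes that make, handle and sense collagen were tested as 9 lists of 119 genes, 118 of them measured well enough to test and none of them a member. The lists were written with results of these data known. Of the 118, 24 were called at the end of induction (12 higher and 12 lower in the Activator line), 28 after 3 h (12 and 16), 29 after 6 h (12 and 17), 35 after 12 h (14 and 21) and 19 after 24 h (11 and 8), beside 2 before induction (2 and 0). Over all genes tested 8.48%, 12.8%, 13.9%, 15.2%, 7.46% and 0.214% were called at these times. Of 28536 genes tested, many had a mean under 100 and could not be called. The comparison above held 13618 genes with a mean of at least 100, and the share called is larger among such genes. No excess of calls in the lists is therefore read from these shares. After 24 h the count was 33, with 9 higher and 24 lower, without Activator replicate 2.

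**Figure D5:**
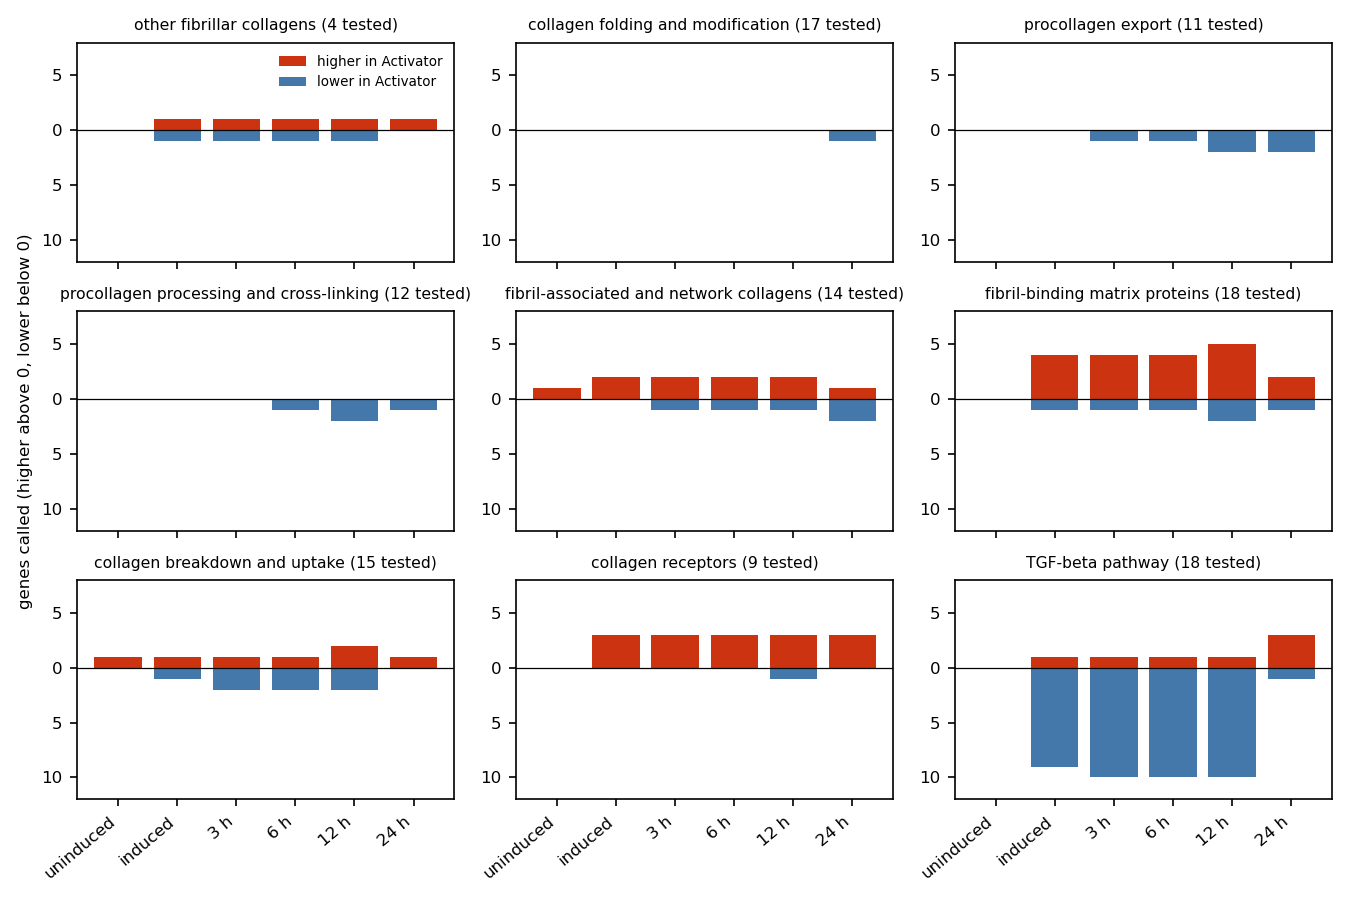
Number of genes called higher (red, above 0) or lower (blue, below 0) in MSR-dCas9-Activator than in MSR-dCas9-Control cells at each time point, for 9 lists of collagen-related genes; the number tested is given in each title. The TGF-beta list has 9 or 10 genes called lower from the end of induction to 12 h, and the folding list none until 24 h.

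The TGF-beta pathway list held the most falls, 9 of 18 at the end of induction and 10 of 18 after 3, 6 and 12 h, with 1 of 18 after 24 h, or 5 of 18 there without Activator replicate 2. Its median log2 fold change was -0.94 at the end of induction and -1.27 after 12 h, beside 0.10 and 0.12 over all genes. Smad3, which carries the signal to the nucleus, had counts of 588, 1341 and 637 in induced Activator cells against 3476, 3271 and 3350 in induced Control cells (-2.07 ± 0.32, edgeR adjusted p = 8.85e-06). Ccn2, a target gene of the pathway, was at 1104, 709 and 590 against 2296, 2566 and 4583 (-1.88 ± 0.44, edgeR adjusted p = 0.000798). After 12 h the ligand gene Tgfb3 stood at -2.10 ± 0.44. Ltbp2, a latent TGF-beta binding protein relative, went against the rest, with 535, 363 and 673 counts in induced Activator cells and 14.9, 28.2 and 24.6 in Control cells (4.57 ± 0.28, edgeR adjusted p = 3.54e-13).

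Of 17 genes for collagen folding and modification, none was called by edgeR at any time up to 12 h. In time order 0, 5, 10, 12 and 8 of them had an unadjusted p under 0.05, beside 10.4%, 61.8%, 73.0%, 75.8% and 76.8% of all genes tested, and DESeq2 called 0 at each time. After 24 h 1 was called lower by edgeR, Serpinh1, the collagen chaperone, at -1.10 ± 0.12, and it was named after its value was seen. DESeq2 called 0 there, and edgeR called 2 lower without Activator replicate 2. Of the 11 export genes, the transcription factor genes Creb3l1 (-1.58 ± 0.19) and Creb3l2 (-1.09 ± 0.21) were lower after 12 h. Creb3l1 held 1143, 1402 and 933 counts in the Activator line against 3483, 3458 and 3316. Of 12 processing and cross-linking genes, the lysyl oxidase relative Loxl3 (-1.37 ± 0.11) and the procollagen N-protease gene Adamts14 (-1.19 ± 0.19) were lower after 12 h. At that time DESeq2 called only 1 export gene and 1 processing gene lower.

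Of the 4 other fibrillar collagens, Col11a2 was higher and Col27a1 lower in the Activator line. Col11a2 rose after 12 h to 372, 449 and 351 counts against 95.4, 87.9 and 70.8 (2.20 ± 0.19), while its partner in type XI, Col11a1, stood at -0.47 ± 0.36. Col27a1 was at 118, 309 and 147 against 525, 543 and 387 (-1.40 ± 0.32). Col2a1 (4.13 ± 0.38) and Col24a1 (4.75 ± 0.48) had means under 100 and were not called. Among fibril-associated and network collagens Col8a2 (5.61 ± 0.36) and Col6a3 (1.75 ± 0.24) were higher after 12 h and Col8a1 (-2.03 ± 0.26) lower. Before induction Col8a2 was already called higher (2.24 ± 0.34), and Col6a3 stood at 0.94 ± 0.21. Col6a3 fell in both lines, from a mean of 945 counts to 244 in the Activator line and from 493 to 72.6 in the Control line after 12 h. Col8a2 was not called after 12 h without Activator replicate 2 (5.73 ± 0.32) or under the mitochondrial scaling (5.04 ± 0.44). Its mean over the 36 libraries, 103, lay just above the limit of 100 for a call, and these changes stayed far beyond 2-fold.

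Genes for matrix proteins that bind fibrils went both ways. Fbln5 (2.36 ± 0.17) and the small proteoglycan gene Fmod (1.97 ± 0.33) were higher after 12 h. Thbs1 (-2.09 ± 0.35) and Ogn, at 0.499 of the Control level, were lower. Of 18 genes, edgeR called 5 higher and 2 lower, and DESeq2 called 5 higher and 1 lower. Tnc was higher at the end of induction (2.42 ± 0.50). Of the genes for collagen breakdown and uptake, the collagenase gene Mmp13 (4.15 ± 0.31) and the cathepsin gene Ctsl (1.06 ± 0.08) were higher after 12 h, with Mmp13 already called higher before induction (1.75 ± 0.28), and Timp3 (-1.88 ± 0.34), a metalloproteinase inhibitor gene, and Mmp11 (-1.29 ± 0.33) lower. Among 9 collagen receptor genes, 3 were called higher at every time after induction. Itga1 (4.70 ± 0.28) and Itga11 (2.85 ± 0.24) led them after 12 h, while Ddr1 was lower (-1.06 ± 0.22). At that time DESeq2 called 3 receptor genes higher and 0 lower.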

How the data were processed

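RNA was measured in 36 libraries of 2 MEF lines. Stranded total RNA was read from both ends by the authors. After trimming, STAR placed reads on GRCm38 and TEtranscripts assigned them to genes or repeat families, so the deposited values are counts without normalisation; the strand setting and the sharing of multi-mapped reads are not given in the sources used here. The MSR-dCas9-Repressor line is not analysed here. The table holds 54842 genes, 1561 repeat families and 1 unnamed entry (0.0021% to 0.0045% of counts, left out). Genes were placed by GENCODE M21, which matched 54495.

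Counts were fitted with edgeR 4.0.16 in R 4.3.3 (glmQLFit robust, glmQLFTest) with 12 groups and the replicate number, TMM factors and library sizes from genes, and filterByExpr. P-values were adjusted by Benjamini-Hochberg over 28536 genes, and the SE was obtained from the log2 fold change and its F statistic (their quotient after taking the root of F). Normalised counts are TMM-scaled counts. P-values measure the spread between cultures of 1 line each. Steps were tested on simulated data.

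The members and gene lists were chosen with earlier results of these data known. Named were the 8 members, the 4 other fibrillar collagens, genes within 200 kb of Col1a2, per list the 2 largest called rises and falls at 12 h and at the end of induction, and the 3 genes most like Col1a1, Col1a2, Col3a1 and Gm43921 (log2 of the count plus 1, over 12 group means). The values of 1 gene under this rule are not reported here. Alternatives were DESeq2 1.42.0, other scalings, no filter, a log2 limit of 0.5, no block, only the groups compared, and leaving out replicates. Leaving out Activator replicate 2 alone and the length of the longest coding transcript were chosen after seeing the data.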

Additional observations from a re-analysis of the deposited data

Results flagged for a closer look

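Induced less uninduced levels differed from line to line in 10 of the related genes named, as read from the interaction term of the edgeR fit (Activator change less Control change, log2). These genes were named for called differences between the lines in the same libraries, so the values are a description and not independent of that choice. It was below 0 for Smad3 (-2.03 ± 0.44), Ccn2 (-1.98 ± 0.60), Col27a1 (-1.83 ± 0.43), Tgfb3 (-1.79 ± 0.58) and Mmp11 (-1.36 ± 0.45). It was above 0 for Fbln5 (1.23 ± 0.22), Itga11 (2.17 ± 0.34), Mmp13 (2.29 ± 0.43), Itga1 (2.77 ± 0.38) and Ltbp2 (4.53 ± 0.43).

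For Gm43921 every induced library of the Activator line fell below its uninduced libraries and every induced library of the Control line rose above its own. The difference of the changes was -3.35 ± 0.86 on the log2 scale, and it was not tested, since the gene was chosen with these values known.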

How the results depend on the processing

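Depth limits Col5a3 and, in the Activator line, Gm43921. Of the counts of related genes called under the alternatives, 84 stayed within 1.5 times the main count and 24 did not. Without a filter on low values the counts were 4 (uninduced), 43 (induced), 46 (3 h), 46 (6 h), 53 (12 h), 34 (24 h) and 35 (induction in the Activator line). With a log2 limit of 0.5 they were 4 (uninduced), 46 (6 h), 54 (24 h), 36 (Activator induction) and 5 (Control induction). Mitochondrial scaling gave 42 for Activator induction, and DESeq2 gave 6 and the fit of only the groups compared 5 for Control induction, where the main count was 3. Leaving out 1 replicate number at a time gave 1 to 5 for Control induction, 6 to 19 for the difference between the lines on induction, 14 to 34 at 24 h and 1 to 3 before induction. Without Activator replicate 2 the counts were 33 at 24 h and 6 for Control induction. Apart from these constructions the cause was not tested.

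The replicate numbers were checked for pairing between the lines. Deviations from the group means correlated at -0.0099 to 0.178, not all above 0.1, so by this check the numbers do not pair the cultures. The block was kept because the study's own design has it, and the fold changes and SEs include it. Without the replicate block the counts of related genes were 2, 23, 26, 28, 34 and 17 in time order, 20 and 3 for induction in the Activator and Control lines and 11 for their difference, and the members called lower numbered 0, 1, 1, 1, 2 and 3 in time order, as with it. Over all alternatives 406 values of named related genes kept their call and 38 lost it, and none turned in direction. Of the members' log2 fold changes under the alternatives, 520 moved by less than the spread between replicates and 56 by more, and of the levels 11 and 5. The lower log2 limit changed only the rule for a call and left the fit as it was. Under it no fold change could move and no call could be lost. Its values are among the 520 and the 406, so that part of these counts tests nothing. Mitochondrial scaling called 5 members lower at 12 h and at 24 h.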
